A study of Mus musculus with 6 samples.

Results

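The genes described here are 35 genes of sterol and fatty acid synthesis, chosen by name: 8 of the mevalonate pathway, 11 of the steps from squalene to cholesterol, 6 that regulate the SREBP transcription factors, and 10 of fatty acid synthesis, elongation and desaturation. The choice was made with earlier results of these data known. All 35 were among the 21399 gene symbols of the expression tables, and 34 had a mean of at least 1 FPKM (fragments counted on a gene, scaled to its length and to the depth of the library) and were tested. RNA sequencing covered 6 mouse libraries, KO1 to KO3 labelled knockout and WT1 to WT3 labelled wild type. Nothing in the labels says that they come from separate cultures or animals, and the spread that the p-values rest on may therefore be technical. Which gene was deleted is not in the labels; the study's title names PPARα, a fatty acid-activated nuclear receptor, in microglia in ischaemic stroke. Primary microglia, the macrophages of the brain, came from CD45.2 KO or WT mice, whose age is not given. All cultures, KO and WT, went through oxygen and glucose deprivation, which models ischaemia in a dish, and during reoxygenation both received peritoneal macrophages from CD45.1 mice. The design text has CD45.1+ cells sorted but calls them microglia, although CD45.1 is the allele of the added macrophages, so which cell was sequenced is not settled by the labels. By that marker the cells would come from mice other than the KO and WT mice. The source label of every library names both microglia and macrophages.

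Cells build cholesterol from acetyl-CoA through mevalonate, the isoprenoid diphosphates, squalene and lanosterol, and build fatty acids from the same acetyl-CoA through malonyl-CoA. The SREBP factors are held in the endoplasmic reticulum with their escort Scap by the Insig proteins when sterols are plentiful, and move to the Golgi to be cleaved when sterols are scarce. Cleaved SREBPs bind sterol regulatory elements and act together with the CCAAT-box factor NF-Y and with Sp1. In macrophages, the pathway is known to be set against the cholesterol taken up from engulfed cells and lipoproteins.

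Promoter windows were available in the RefSeq table (GRCm38.p6, 250 bases before to 50 after each start) for 28 of the 35 genes; Sqle, Fads1, Stard4, Scd1, Fdps, Fdft1 and Scd2 were not in it. The 250 bases before the start are shown for 3 genes whose KO and WT libraries did not overlap, Insig1 (chr5:28071162-28071411, plus strand), Msmo1 (chr8:64733579-64733828, minus strand) and Acly (chr11:100528001-100528250, minus strand), and for Hmgcs1 (chr13:119690101-119690350, plus strand), the only one of the 28 with a match to the sterol regulatory element searched. Capitals mark CCAAT boxes, which read ATTGG when they lie on the other strand, the E-box CACGTG and the element TCACNCCAC.
Insig1: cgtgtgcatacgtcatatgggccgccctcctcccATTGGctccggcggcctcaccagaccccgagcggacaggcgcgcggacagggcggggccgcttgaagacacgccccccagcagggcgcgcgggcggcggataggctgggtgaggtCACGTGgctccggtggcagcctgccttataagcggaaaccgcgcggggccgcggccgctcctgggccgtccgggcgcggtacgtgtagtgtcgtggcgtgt
Msmo1: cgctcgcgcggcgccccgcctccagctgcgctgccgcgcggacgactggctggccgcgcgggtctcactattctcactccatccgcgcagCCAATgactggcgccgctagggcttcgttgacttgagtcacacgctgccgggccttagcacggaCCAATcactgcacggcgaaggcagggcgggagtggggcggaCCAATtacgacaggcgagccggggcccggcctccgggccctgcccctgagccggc
Acly: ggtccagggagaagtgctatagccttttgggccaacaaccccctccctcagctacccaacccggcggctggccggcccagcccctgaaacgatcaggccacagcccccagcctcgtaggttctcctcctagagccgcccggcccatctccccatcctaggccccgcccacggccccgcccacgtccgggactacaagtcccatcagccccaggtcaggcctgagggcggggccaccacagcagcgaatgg
Hmgcs1: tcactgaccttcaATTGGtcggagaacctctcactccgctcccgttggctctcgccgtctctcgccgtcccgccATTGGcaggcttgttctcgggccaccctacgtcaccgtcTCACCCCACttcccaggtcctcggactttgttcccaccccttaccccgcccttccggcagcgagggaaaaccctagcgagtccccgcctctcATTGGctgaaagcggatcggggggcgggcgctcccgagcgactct
The 250 bases held 1 CCAAT match and 1 E-box for Insig1, 3 CCAAT matches for Msmo1, none of these motifs for Acly, and 3 CCAAT matches and 1 TCACNCCAC for Hmgcs1. The single Acly match to CCAAT lay in the 50 bases after its start.

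Over the full 300-base windows, searched on both strands, 23 of the 28 genes (82.1%) held CCAAT, against 42.8% of the 8604 tested genes with a window and 41.1% of 27025 genes in all. Counted on the gene's own strand alone, 13 of the 28 (46.4%) held it, against 25.4% of tested genes. The GC box GGGCGG was in 22 of the 28 (78.6%), against 68.5% of tested genes and 38.2% of all genes. CACGTG was in 6 of the 28 (21.4%), namely Hsd17b7, Sc5d, Dhcr7, Insig1, Scap and Elovl5, against 12.1% of tested genes. TCACNCCAC was in 1 of the 28 (3.57%), against 1.29% of tested genes. Other spellings of the sterol regulatory element, and sites outside the windows, were not searched, so a gene without a match may still have one. The direct repeat AGGTCA, with 1 base between its copies, the type of element that PPARα binds with its partner RXR, was in 0 of the 28 windows and in 0.0349% of those of tested genes. Matches to different motifs were counted independently, whether or not they overlapped, and none of them shows binding. The window of Acaca, which held no CCAAT box, E-box or GC box, starts inside the longer gene model of GENCODE M21. The models of Msmo1 and Insig1 also reach beyond the RefSeq start, into the 250 bases shown.

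Reads recovered from the FPKM steps summed to between 35289937 and 38092819 in KO libraries and between 34542822 and 36727607 in WT libraries. A tested gene of the 34 had between 222 and 42824 reads in a library, with a median of 1479. Ppara had 13, 23 and 10 reads in KO1 to KO3 and 11, 1 and 2 reads in WT1 to WT3. It was thus near the floor of detection in both groups and was not lower in the KO libraries. The summed FPKM of 14 core macrophage genes was 11662, 6188 and 5087 in KO1 to KO3, against 1904, 4018 and 1359 in WT1 to WT3, with 12 of the 14 genes higher in every KO library and none at 0. Over all genes tested, 9.75% were higher and 15.2% lower in every KO library. Most of each core sum was Lyz2, with 8717, 4441 and 3548 FPKM in KO1 to KO3 and 1352, 2947 and 979 FPKM in WT1 to WT3. In the core sum, KO1 stood 2.07-fold above the mean of KO2 and KO3, and WT2 stood 2.46-fold above the mean of WT1 and WT3. The 15 peritoneal macrophage genes summed to 6876 to 14427 in KO libraries and 1663 to 5598 in WT libraries, and 13 were higher in every KO library. Most of each of these sums was Saa3, whose groups overlapped, with 4090 FPKM in KO3 and 4271 FPKM in WT2. Of the microglial list, 12 of 13 genes were in the tables, 2 of them at 1 FPKM or more in every library, and 3 were higher in every KO library. Of its defining genes, P2ry12 did not exceed 1.09 FPKM in any library, Sall1 was at 0 in some, and Tmem119 had 2.24, 2.14 and 2.43 FPKM in KO1 to KO3 and 0.461, 1.04 and 0.203 FPKM in WT1 to WT3. The 10 B cell genes summed to 4443 to 4835 in KO libraries and 5031 to 5734 in WT libraries, with 5 of 10 lower in every KO library, and the 12 T and NK cell genes to 146 to 172 in KO libraries and 183 to 220 in WT libraries, with 6 of 12 lower. Mast cell genes spanned 107 to 469 in KO libraries and 10.5 to 559 in WT libraries. Astrocyte genes summed to 2.12 to 2.43 in KO libraries and 1.08 to 7.85 in WT libraries. Of 8 oligodendrocyte genes, 3 were at 1 FPKM or more in every library, and the defining Mog, Mobp, Olig2 and Sox10 were at 0 in some. Fibroblast and mesothelial genes summed to 3.29 to 35.3 in KO libraries and 0.942 to 21.8 in WT libraries, and proliferation genes to 105 to 111 in KO libraries and 105 to 114 in WT libraries. In bulk RNA of this kind, fewer cells of a type and less RNA per cell cannot be told apart.

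No gene of the pathway passed the test over all genes. The limma test on log2(FPKM + 1), adjusted by Benjamini-Hochberg over 10732 genes at 0.05, called 0 of the 34 genes higher and 0 lower, against a background of 0.0280% called higher and 0.00% called lower (3 and 0 genes). At an unadjusted p under 0.05, 7 of the 34 were higher in KO (20.6%), against 8.86% of all genes tested, and 0 were lower, against 8.21%. Over all genes, the unadjusted split of 951 higher and 881 lower depended on the scaling, with 1164 and 445 under median-of-ratios, 1145 and 421 under voom and 822 and 1290 under a common total without mitochondrial and ribosomal protein genes; of the 34, 8, 9 and 6 were then higher and none lower. Limma voom on the recovered reads called none of the 34 after adjustment either. The KO libraries all lay above the WT libraries for 6 of the 34 (17.6%; background 9.75%): Msmo1, Insig1, Stard4, Acaca, Acly and Fads1. They all lay below them for Scap alone (2.94%; background 15.2%). Leaving out a library can only add to such counts. The number with KO higher was 12 without KO3 (background 13.1%), 14 without WT1 (12.2%) and 10 without WT2 (18.4%), and it was 6 without KO1 (11.1%), KO2 (11.2%) or WT3 (11.1%). The number with KO lower was 4 without KO3 (background 22.5%), 1 without WT1 (23.7%) and 3 without WT2 (31.8%), and it was 1 without KO1 (18.0%) and 3 without KO2 (18.7%) or WT3 (20.5%).

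The fold changes of the 34 were small. They ran between -0.18 and 0.63 on the log2(FPKM + 1) scale, which understates the change of low genes, with standard errors of 0.08 to 0.18. On that scale, the 95% interval lay within 1 log2 either way for 33 of the 34, Fads1 being the exception, and within 0.58 log2 for 28. For low genes, 1 log2 on that scale is more than a 2-fold change in FPKM. Of the 34, 21 (61.8%) had a positive value, against 35.4% of all genes tested, and the median was 0.08, against -0.06 over all genes. The scaling moves both: with median-of-ratios scaling or voom, 24 of the 34 were positive, against 48.0% and 48.2% of all genes, and with the common total 18 were, against 23.9%. By role, the positive values were 4 of 8 in the mevalonate steps with a median of 0.03, 10 of 11 in the sterol steps with a median of 0.16, 2 of 6 among the SREBP regulators with a median of -0.08, and 5 of 9 in the fatty acid steps with a median of 0.07.

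**Figure D1:**
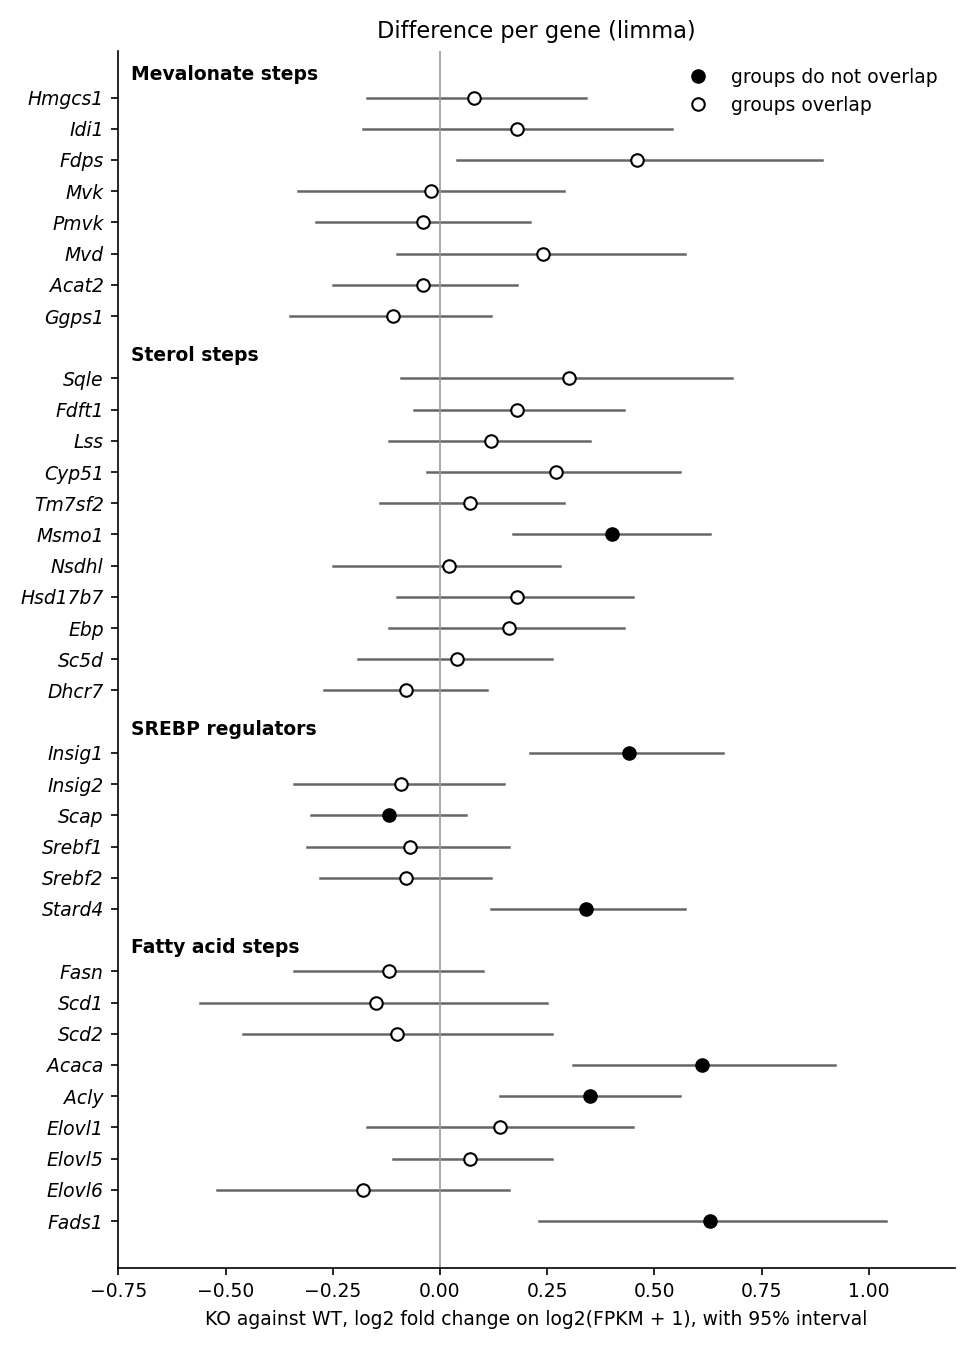
Log2 fold change of KO against WT (x axis, log2(FPKM + 1) scale) for the 34 tested genes, by role, with limma's 95% interval as a line. Filled points mark genes whose 3 KO and 3 WT libraries did not overlap; Acaca and Fads1 lie farthest to the right, at 0.61 and 0.63, and Scap is the filled point left of 0.

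In level per length, the genes spanned a wide range. Scd1, the stearoyl-CoA desaturase that makes oleate, was the highest, with 152, 218 and 249 FPKM in KO1 to KO3 and 230, 220 and 226 FPKM in WT1 to WT3. Srebf2, the gene of the SREBP that drives sterol synthesis, came next with a mean of 83.7 FPKM over the 6 libraries, followed by Acly, which makes cytosolic acetyl-CoA from citrate, with 42.2 FPKM. Each of these 3 did not overlap the next in the order. From Elovl5 (27.1 FPKM) down to Fads2 (0.953 FPKM) neighbours mostly overlapped, so that their order is not resolved, except below Mvk and below Hsd17b7. In all, 2 genes averaged over 50 FPKM, 15 were between 10 and 50, 17 between 1 and 10, and 1 under 1. Srebf2 lay above Srebf1 in all 6 libraries, and Insig1 above Insig2.

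**Figure D2:**
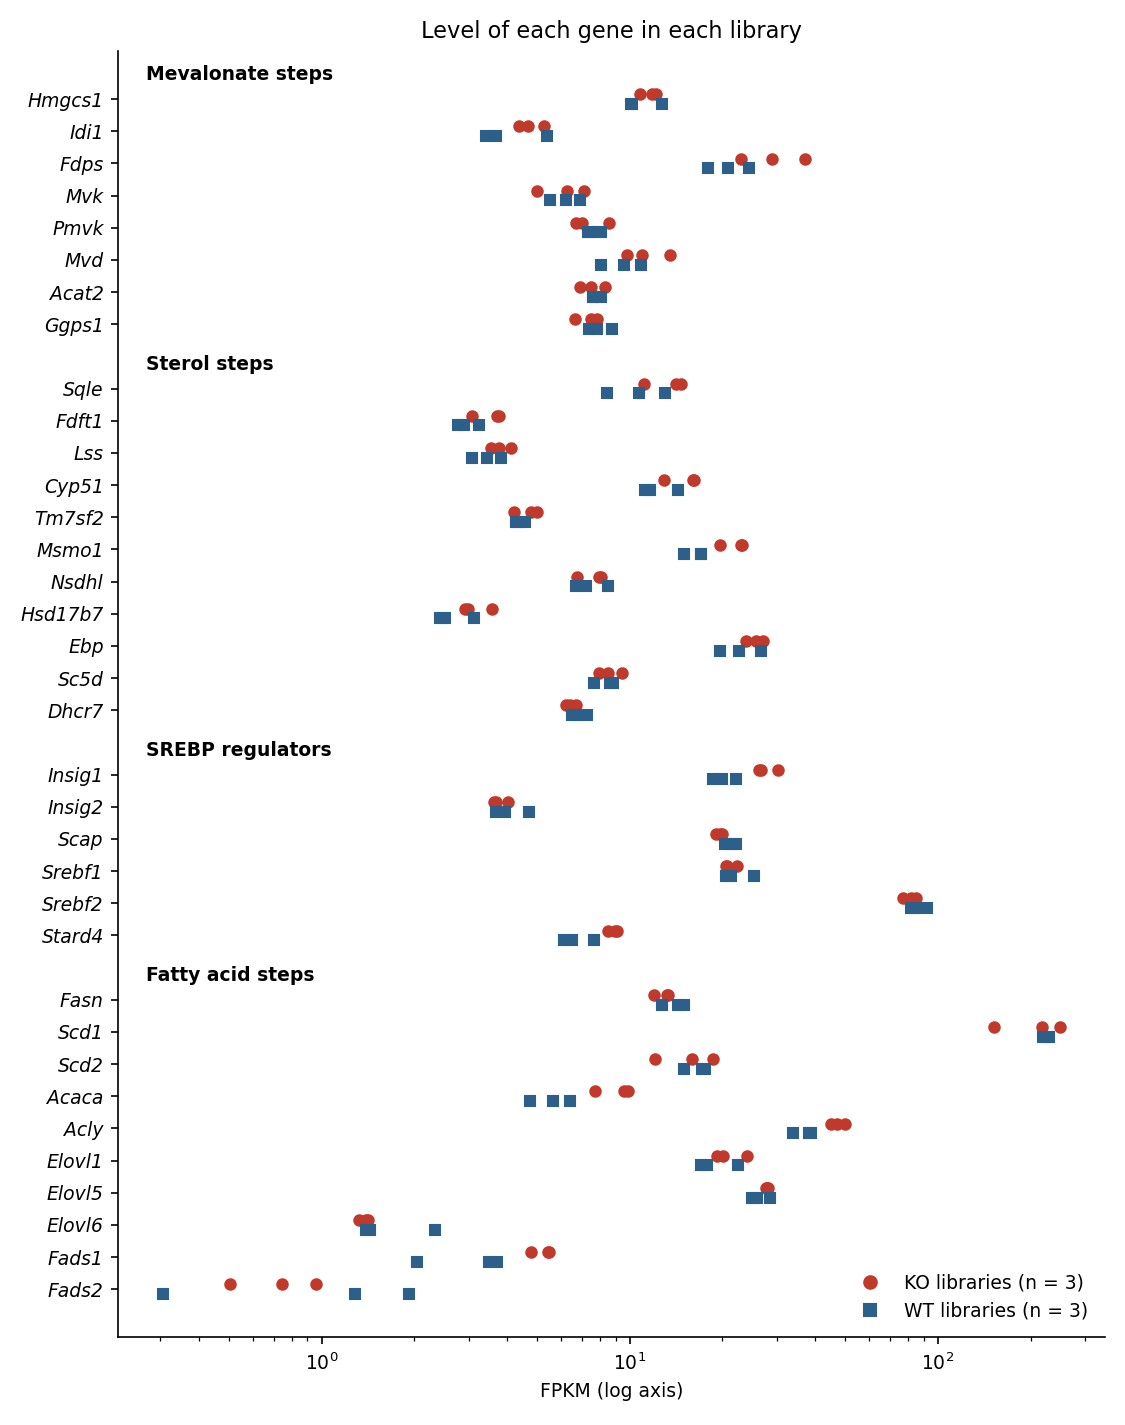
FPKM of each of the 35 genes (x axis, log scale) in the 3 KO libraries (circles) and the 3 WT libraries (squares), by role. Scd1 is the highest and Fads2, between 0.306 and 1.92 FPKM, the lowest and most scattered; for most genes circles and squares overlap.

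In the mevalonate steps, no gene's groups were separate. Fdps, which makes farnesyl diphosphate, the branch point between sterols and other isoprenoids, had 37.1, 29.0 and 23.0 FPKM in KO1 to KO3 and 20.8, 24.3 and 17.9 FPKM in WT1 to WT3. KO1 and KO2 were above all WT libraries and KO3 was below WT2. The log2 fold change was 0.46 ± 0.18 (SE; limma adjusted p = 0.26). With the core macrophage score as a covariate, it was -0.19 ± 0.20 (SE). Like the macrophage sums, Fdps was highest in KO1 among KO libraries and in WT2 among WT libraries. KO1 was the highest KO library for 33.4% of all genes tested, and WT2 the highest WT library for 41.7%.

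Hmgcs1, the cytosolic HMG-CoA synthase and a textbook SREBP target, had 10.8, 12.2 and 11.8 FPKM in KO libraries and 12.7, 10.1 and 10.2 FPKM in WT libraries. The groups overlapped, WT1 being the highest of all 6, and the log2 fold change was 0.08 (95% interval -0.17 to 0.34). Idi1, the isopentenyl diphosphate isomerase, likewise had its highest value in WT1, with 5.28, 4.67 and 4.36 FPKM in KO libraries and 5.41, 3.67 and 3.42 FPKM in WT libraries. Mvd, the mevalonate diphosphate decarboxylase, had a log2 fold change of 0.24 ± 0.14 (SE) that was -0.28 ± 0.15 (SE) with the macrophage covariate. The remaining 4, the thiolase Acat2, the kinases Mvk and Pmvk and the geranylgeranyl diphosphate synthase Ggps1, had log2 fold changes between -0.11 and -0.02, each with limma adjusted p of at least 0.59. The signs of Mvk, Pmvk and Acat2 were positive, at 0.01 to 0.04, with median-of-ratios scaling and voom.

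In the sterol steps, Msmo1 was the gene whose groups did not overlap. Msmo1, a methylsterol oxidase that takes part in removing methyl groups from the sterol, had 23.1, 23.0 and 19.6 FPKM in KO1 to KO3 and 17.0, 17.1 and 15.0 FPKM in WT1 to WT3. Every KO library was above every WT library, and replicate 3 was the lowest in both groups. The means were 21.9 ± 2.00 FPKM in KO and 16.4 ± 1.18 FPKM in WT (SD, n = 3 each), a log2 fold change of 0.40 ± 0.10 (SE; 95% interval 0.17 to 0.63; limma adjusted p = 0.13). The value with the macrophage covariate was 0.18 ± 0.15 (SE). The gene lies at chr8:64718139-64733792 on the minus strand (mm10, GENCODE M21), and no other annotated gene overlaps it.

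Sqle, the squalene epoxidase and a rate-limiting step, had 14.7, 14.1 and 11.1 FPKM in KO libraries and 13, 10.7 and 8.45 FPKM in WT libraries. Cyp51, the lanosterol demethylase, had 16.2, 16.1 and 12.9 FPKM in KO libraries and 14.3, 11.6 and 11.2 FPKM in WT libraries. Both had the same order as Msmo1 within KO and overlapped WT only through KO3 and WT1. Their log2 fold changes were 0.30 and 0.27 (limma adjusted p = 0.40 and 0.33), and that of Sqle was -0.04 ± 0.28 (SE) with the macrophage covariate.

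Fdft1, the squalene synthase that commits farnesyl units to sterols, had 3.71, 3.77 and 3.08 FPKM in KO libraries and 3.25, 2.77 and 2.90 FPKM in WT libraries. Its log2 fold change was 0.18, and its gene overlaps Ctsb on the opposite strand, a lysosomal protease, so that without a stated strand setting its reads are uncertain. The same holds for Cyp51, Mvd, Ggps1, Srebf1 and Elovl1, which also overlap a protein-coding gene on the opposite strand. Fdps and Tm7sf2 overlap a protein-coding gene on their own strand, whose reads no strand setting would separate. Lss, the lanosterol synthase, was at 0.12, the sterol reductase Tm7sf2 at 0.07, the decarboxylating dehydrogenase Nsdhl at 0.02, the ketosteroid reductase Hsd17b7 at 0.18, the sterol isomerase Ebp at 0.16, the lathosterol desaturase Sc5d at 0.04, and the dehydrocholesterol reductase Dhcr7 at -0.08. Their groups overlapped in every case. Nsdhl and Sc5d changed sign with the common total, at -0.05 and -0.03.

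Among the SREBP regulators, Insig1 and Stard4 were higher in every KO library while the SREBP genes were not. Insig1, the sterol-sensing anchor whose own gene is an SREBP target, had 30.4, 26.6 and 26.3 FPKM in KO1 to KO3 and 22.1, 18.7 and 20.0 FPKM in WT1 to WT3. The lowest KO library was above the highest WT library. The means were 27.8 ± 2.31 FPKM in KO and 20.3 ± 1.70 FPKM in WT (SD, n = 3 each), a log2 fold change of 0.44 ± 0.10 (SE; 95% interval 0.21 to 0.66; limma adjusted p = 0.12). It was 0.42 ± 0.18 (SE) with the macrophage covariate and between 0.37 and 0.50 with any library left out. Insig1 lies at chr5:28071363-28078662 on the plus strand, with no overlapping gene.

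Stard4, a soluble sterol carrier, had 8.48, 9.07 and 8.98 FPKM in KO1 to KO3 and 7.67, 6.13 and 6.52 FPKM in WT1 to WT3. KO1, with the highest macrophage sum, was the lowest of the KO libraries, and WT2, with the highest macrophage sum among WT, was the lowest of all. Such an order is common: KO1 was the lowest KO library for 49.0% of all genes tested, and WT2 the lowest WT library for 35.8%. The log2 fold change was 0.34 ± 0.10 (SE; 95% interval 0.12 to 0.57; limma adjusted p = 0.16), and 0.48 ± 0.17 (SE) with the macrophage covariate. Insig1 was also lowest in WT2, at 0.891 of the mean of WT1 and WT3 (Stard4 0.865), but unlike Stard4 it was highest in KO1, at 1.15 of the mean of KO2 and KO3 (Stard4 0.940).

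Scap, the SREBP escort, had 19.0, 19.7 and 19.9 FPKM in KO libraries and 21.6, 22.1 and 20.4 FPKM in WT libraries. Every KO library was below every WT library, KO3 and WT3 being close together, and the log2 fold change was -0.12 ± 0.08 (SE; limma adjusted p = 0.46). Srebf2 had 76.8, 84.9 and 82.1 FPKM in KO libraries and 92.5, 84.1 and 82.0 FPKM in WT libraries. Srebf1, whose product drives mainly fatty acid genes, had 20.7, 20.5 and 22.3 FPKM in KO libraries and 21.3, 25.4 and 20.5 FPKM in WT libraries. Insig2, the second anchor, had 3.67, 4.04 and 3.64 FPKM in KO libraries and 3.95, 3.69 and 4.70 FPKM in WT libraries. The groups overlapped for all 3 of these, with 95% intervals of -0.28 to 0.12 for Srebf2, -0.31 to 0.16 for Srebf1 and -0.34 to 0.15 for Insig2.

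In the fatty acid steps, Acaca and Acly, which supply malonyl-CoA and acetyl-CoA, were higher in every KO library, while the synthase Fasn was not. Acaca, the acetyl-CoA carboxylase that makes malonyl-CoA, had 9.89, 9.61 and 7.74 FPKM in KO1 to KO3 and 6.38, 5.65 and 4.75 FPKM in WT1 to WT3. The means were 9.08 ± 1.17 FPKM in KO and 5.59 ± 0.819 FPKM in WT (SD, n = 3 each), a ratio of 1.62. The log2 fold change was 0.61 ± 0.13 (SE; 95% interval 0.31 to 0.92; limma adjusted p = 0.11, between 0.064 without WT2 and 0.48 with the macrophage covariate). With that covariate the value was 0.35 ± 0.22 (SE). Acaca lies at chr11:84129672-84401651 on the plus strand and overlaps Gm11437 on the opposite strand, whose reads cannot be told apart from its own without a stated strand setting.

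Acly had 50.0, 47.2 and 45.0 FPKM in KO1 to KO3 and 38.9, 38.3 and 33.8 FPKM in WT1 to WT3. All KO libraries were above all WT libraries, with means of 47.4 ± 2.51 FPKM in KO and 37.0 ± 2.79 FPKM in WT (SD, n = 3 each). The log2 fold change was 0.35 ± 0.09 (SE, limma adjusted p = 0.13), and 0.16 ± 0.13 (SE) with the macrophage covariate. Fasn, the synthase that makes palmitate from malonyl-CoA, had 12, 13.3 and 13.2 FPKM in KO libraries and 15.0, 14.4 and 12.7 FPKM in WT libraries. WT1 and WT2 were above all KO libraries and WT3 lay within the KO range, and the log2 fold change was -0.12 (95% interval -0.34 to 0.10).

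Fads1, a desaturase of polyunsaturated fatty acid synthesis, had 5.42, 5.47 and 4.79 FPKM in KO1 to KO3 and 3.72, 3.50 and 2.04 FPKM in WT1 to WT3. The groups did not overlap, and WT3 was well below the other WT libraries. The means were 5.23 ± 0.378 FPKM in KO and 3.09 ± 0.917 FPKM in WT (SD, n = 3 each), a ratio of 1.69 and a log2 fold change of 0.63 ± 0.17 (SE; limma adjusted p = 0.15). It was 0.43 without WT3 and 0.17 ± 0.27 (SE) with the macrophage covariate. Fads2, the desaturase that acts before it, had 0.744, 0.505 and 0.958 FPKM in KO libraries and 1.92, 1.28 and 0.306 FPKM in WT libraries, with 31 to 203 reads, and was not tested.

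Scd1 and its paralog Scd2 had the same order among KO libraries. Scd2 had 12.1, 15.9 and 18.7 FPKM in KO1 to KO3 and 17.2, 15.0 and 17.5 FPKM in WT1 to WT3. Both were lowest in KO1, at 0.649 (Scd1) and 0.697 (Scd2) of the mean of KO2 and KO3. Their log2 fold changes were -0.15 and -0.10, and without KO1 they were 0.05 and 0.06. The longest transcripts of the pair align at 88.6% identity over 1236 bases, with an identical run of 147 bases, so that some reads could be assigned to either.

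Of the elongases, Elovl5, which extends polyunsaturated chains, had 27.8, 28.1 and 27.7 FPKM in KO libraries and 28.5, 25.0 and 25.8 FPKM in WT libraries. Elovl1, which makes very long saturated chains, had a log2 fold change of 0.14 ± 0.13 (SE), and -0.35 ± 0.12 (SE) with the macrophage covariate. Elovl6, which extends palmitate to stearate, had 1.32, 1.41 and 1.39 FPKM in KO libraries and 1.44, 1.39 and 2.34 FPKM in WT libraries, with WT3 apart from the other 5. The groups overlapped for all 3.

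**Figure D3:**
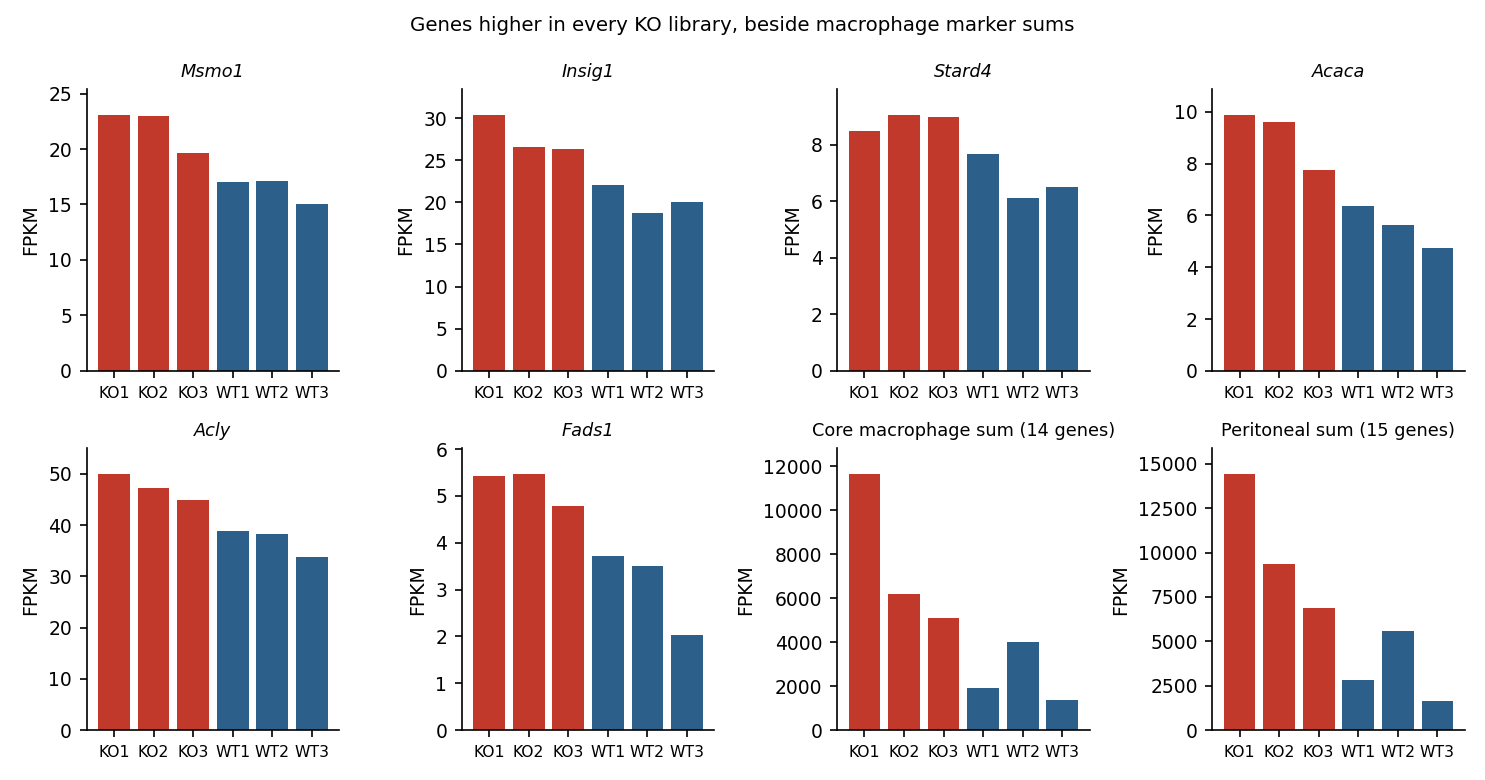
FPKM in each library (bars from 0, in the order KO1 to KO3, then WT1 to WT3) for the 6 genes that were higher in every KO library, and the summed FPKM of the core and peritoneal macrophage lists. Most of the core sum is Lyz2 and most of the peritoneal sum is Saa3. The macrophage sums vary more than any of the 6 genes, with KO1 the highest and WT2 above WT1 and WT3, while Insig1 and Stard4 were lowest in WT2; Insig1, at 30.4 FPKM, was highest in KO1.

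The macrophage marker sums differed in the same comparison, and so did the B cell sums and the T and NK cell sums. Their part in the differences of the pathway genes was not tested, since the core macrophage score differed by 1.47 log2 between the groups with 3 libraries each. The score ran from 6.16 to 6.92 in KO libraries and from 4.41 to 5.72 in WT libraries, without overlap. With the core macrophage score as a covariate, 2 of the 34 genes were higher in KO at an unadjusted limma p under 0.05. These were Insig1 (limma adjusted p = 0.36) and Stard4 (limma adjusted p = 0.33). At the same threshold, 2 were lower, Mvk (-0.43 ± 0.17, SE) and Elovl1 (-0.35 ± 0.12, SE). Over all genes tested, 7.19% were higher and 6.63% lower at that threshold in the same fit. The median of the 34 was 0.15, and the 6 separate genes kept a positive value, between 0.16 ± 0.13 (SE) for Acly and 0.48 ± 0.17 (SE) for Stard4. The value of Fads1, 0.17, was smaller than its standard error of 0.27.

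**Figure D4:**
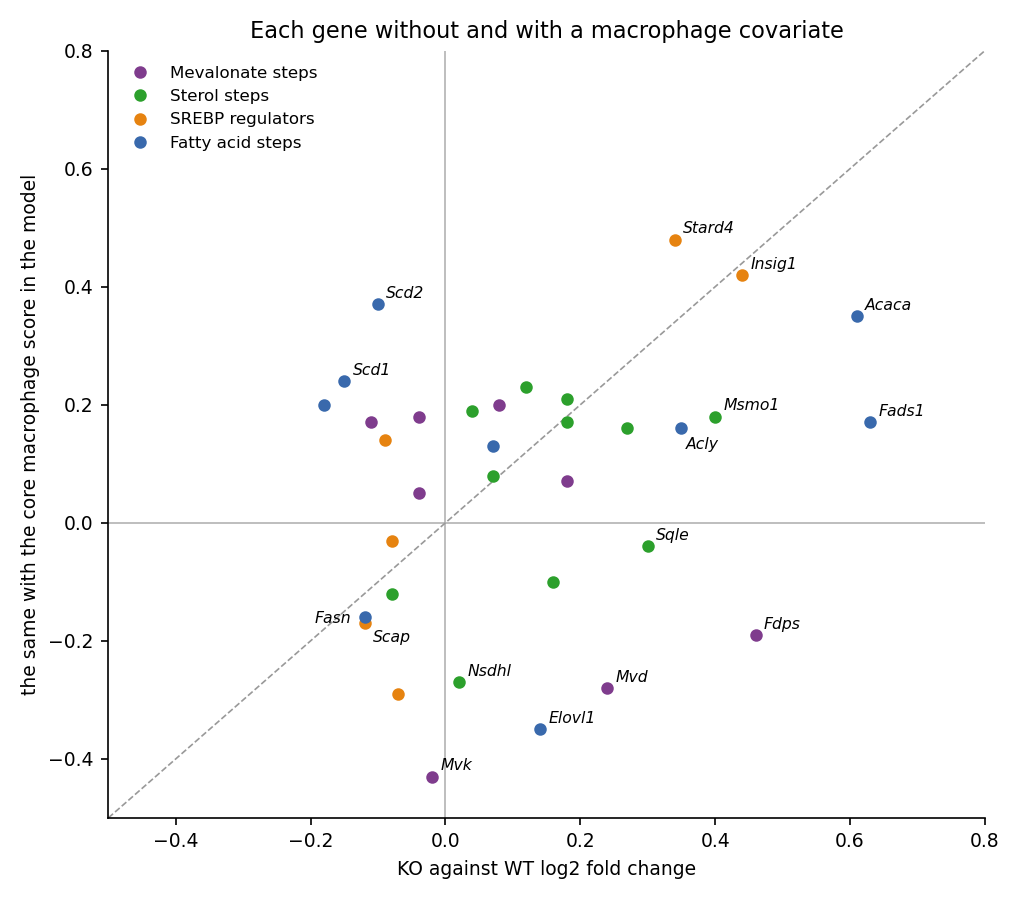
Log2 fold change of KO against WT for each of the 34 tested genes without (x axis) and with (y axis) the core macrophage score in the limma model; colours give the role and the dashed line marks equal values. Insig1 and Stard4 lie near or above the line, while Fads1, Acly, Msmo1 and Acaca lie below it and Fdps, Mvd and Elovl1 are among those that change sign.

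Ratios of paired genes within a library do not depend on depth. The ratio of Insig1 to Insig2 was 8.29, 6.60 and 7.22 in KO1 to KO3 and 5.59, 5.07 and 4.25 in WT1 to WT3, so that every KO library was above every WT library. The difference of 0.57 log2 had an exact two-sided permutation p = 0.1, the smallest that 3 libraries against 3 allow, and an adjusted p = 0.40 over the 4 ratios. The ratio of Srebf1 to Srebf2 was 0.269, 0.241 and 0.272 in KO libraries and 0.230, 0.302 and 0.250 in WT libraries (exact permutation p = 1.0). Scd1 to Scd2 was 12.6, 13.7 and 13.3 in KO libraries and 13.3, 14.7 and 13 in WT libraries (exact permutation p = 0.5). Fads1 to Fads2 was 7.28, 10.8 and 5.00 in KO libraries and 1.94, 2.73 and 6.65 in WT libraries, with WT3 inside the KO range its Fads2 being the lowest (exact permutation p = 0.2). Insig1 and Insig2 share no identical run above 11 bases in the aligned part of their transcripts.

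**Figure D5:**
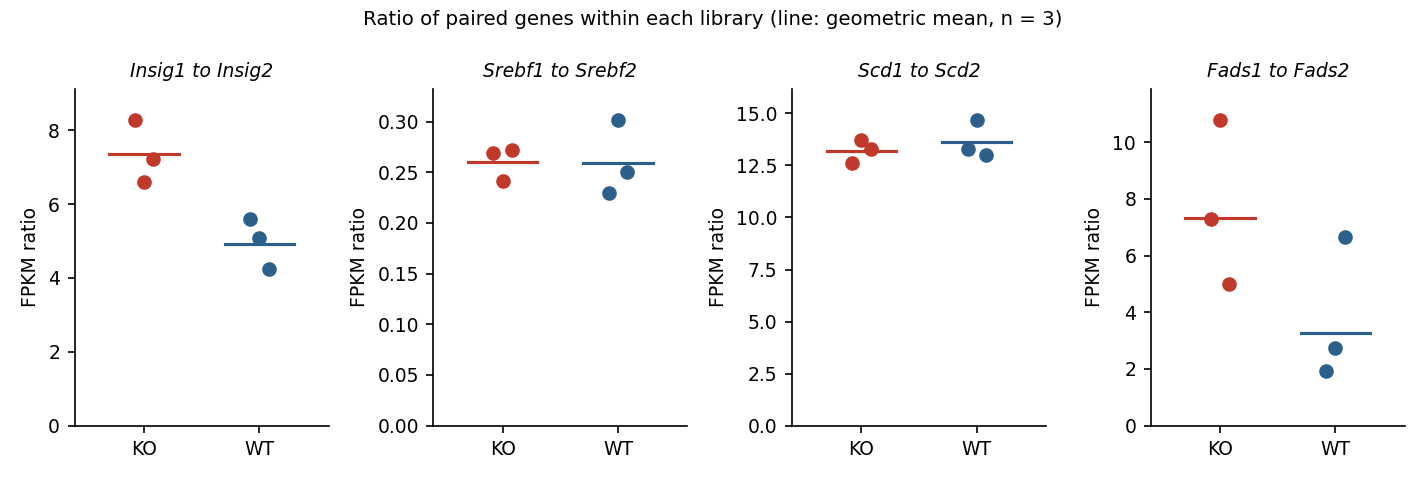
Ratio of the FPKM of paired genes within each library (y axes from 0) in the 3 KO and 3 WT libraries; lines are geometric means. The ratio of Insig1 to Insig2 is the one whose groups do not overlap, 6.60 to 8.29 in KO against 4.25 to 5.59 in WT.

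Other genes of the pathway came from lists drawn up by function, with earlier results of these data known. None of them was called after adjustment either. Of 11 genes of SREBP cleavage and Insig turnover, 8 had positive fold changes (72.7%), against 35.4% of all genes tested. The median was 0.02 and 0 were called. At an unadjusted limma p under 0.05, 0 were higher and 0 lower, against 8.86% and 8.21% of all genes. The smallest p among them were those of Erlin1, an endoplasmic reticulum membrane protein that restrains SREBP activation, and of Vcp, the ATPase that extracts membrane proteins for degradation. Erlin1 had 11.0, 11.8 and 10.7 FPKM in KO libraries and 9.68, 8.62 and 10.3 FPKM in WT libraries (log2 fold change 0.21, limma adjusted p = 0.31). Vcp had 103, 98.6 and 92.1 FPKM in KO libraries and 85.8, 95.6 and 80.0 FPKM in WT libraries (0.17, limma adjusted p = 0.41). Erlin1 was separate between the groups and Vcp was not.

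Of 12 tested genes of the branches that use isoprenoids for prenylation, ubiquinone and dolichol, 5 were positive (41.7%), against 35.4% of all genes tested. The median was -0.02 and 0 were called. At an unadjusted limma p under 0.05, 1 was higher and 1 lower (8.33% each), against 8.86% and 8.21% of all genes. Nus1, a subunit of the dolichol-making prenyltransferase, had 21.6, 19.7 and 18.7 FPKM in KO libraries and 15.4, 16.6 and 12.6 FPKM in WT libraries (0.41 ± 0.12, SE, limma adjusted p = 0.16). With the macrophage covariate its value was 0.02 ± 0.13 (SE). Rabggta, a subunit of the Rab prenyltransferase, had 20.8, 19.3 and 21.1 FPKM in KO libraries and 22.9, 26.5 and 25.0 FPKM in WT libraries (-0.27, limma adjusted p = 0.20). The groups did not overlap for either, in opposite directions.

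Of 16 tested genes of fatty acid activation, elongation and supply outside the 35, 10 were positive (62.5%), against 35.4% of all genes tested. The median was 0.11 and 0 were called. At an unadjusted limma p under 0.05, 5 were higher (31.2%) and 0 lower, against 8.86% and 8.21% of all genes. Acsl4, which activates arachidonate, had 12.7, 12.6 and 11.2 FPKM in KO libraries and 10, 7.07 and 6.94 FPKM in WT libraries (0.56 ± 0.14, SE, limma adjusted p = 0.13). With the macrophage covariate its value was 0.54 ± 0.27 (SE). Hacd4, a dehydratase of the elongation cycle, had 5.69, 2.58 and 2.52 FPKM in KO libraries and 1.07, 1.95 and 0.604 FPKM in WT libraries (1.03 ± 0.30, SE, limma adjusted p = 0.17). With the macrophage covariate its value was -0.19 ± 0.25 (SE). Both were separate, and Hacd4, like the macrophage sums, was highest in KO1 and, among WT, in WT2. KO1 was the highest KO library for 33.4% of all genes tested, and WT2 the highest WT library for 41.7%.

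Of 13 other SREBP-linked genes, 5 were positive (38.5%), against 35.4% of all genes tested. The median was -0.06 and 0 were called. At an unadjusted limma p under 0.05, 3 were higher (23.1%) and 1 lower (7.69%), against 8.86% and 8.21% of all genes. Pcyt2, of phosphatidylethanolamine synthesis, had 31.4, 30.8 and 30.5 FPKM in KO libraries and 34.4, 40.9 and 37.4 FPKM in WT libraries (-0.27, limma adjusted p = 0.19). Fabp5, a fatty acid-binding protein, had 178, 95.2 and 80.6 FPKM in KO libraries and 48.9, 76.8 and 57.4 FPKM in WT libraries (0.88 ± 0.30, SE, limma adjusted p = 0.21). With the macrophage covariate its value was -0.11 ± 0.39 (SE). KO and WT were separate for both, and Fabp5 too was highest in KO1 and, among WT, in WT2. Over all genes tested, these were the highest library of their group for 33.4% and 41.7%.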

How the data were processed

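RNA from 6 mouse libraries, 3 KO and 3 WT by their titles, was extracted with TRIzol and prepared with the VAHTS Universal V6 kit, per the labels' protocols. The deposited values are FPKM computed by the authors, with mm10 as the genome build per the submitters' processing notes. What aligned and counted the reads, with which strand setting and annotation, is not given in the sources used here. FPKM steps gave whole reads, within 0.002 reads, for 19331 of 19331 genes above 0 in at least 2 libraries, and so each library's depth. In simulated data with known reads, the recovered reads were exact for 1433 of 1500 genes (95.5%). The count precision is that of these reads.

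The 10732 genes averaging 1 FPKM or more were tested on log2(FPKM + 1) by limma 3.58.1 (R 4.3.3; moderated by eBayes, trend on), with Benjamini-Hochberg adjustment over all of them and a threshold of 0.05. In simulated data with each gene's spread in these libraries, this test called 43.5% of 200 genes changed 1.5-fold and 80.5% of 200 changed 2-fold. It also called 6 unchanged genes in each case. The simulated noise was independent between genes, and the change was added on the log2(FPKM + 1) scale. These shares may therefore not hold where genes vary together between libraries, or for low genes. The core macrophage score is the mean log2(FPKM + 1) of its list. Ratios were tested with an exact permutation test (scipy 1.17.1). Motifs were searched in RefSeq GRCm38.p6 windows; gene positions are from GENCODE M21.

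All 35 genes are accounted for. Of each further pathway list, the genes called, or else the pair with the smallest p, are named. Members and lists were chosen with earlier results of these data known. Alternatives were other pseudocounts, filters, scalings, voom, no trend, the macrophage covariate, a replicate block and each library left out.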

Additional observations from a re-analysis of the deposited data

How the results depend on the processing

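Of 570 values of the 34 tested genes under 17 alternatives, 0 passed 0.05 adjusted; the smallest adjusted p was 0.064 (Acaca without WT2). Msmo1, Insig1, Stard4, Acaca, Acly and Fads1 kept a positive sign in all of them. Over all genes, 3 were called higher, against 0 with the macrophage covariate or with no filter, 6 with a pseudocount of 5 or a common total, 5 with voom and 0 to 500 with a library left out (500 without WT2). Genes called lower, 0 in all, were 0 to 38 with a library left out (38 without WT2). The median of the 34, 0.08, was 0.01 with a common total, 0.15 with the macrophage covariate, 0.14 with median-of-ratios scaling, 0.15 with voom and 0.06 to 0.11 with a library left out. The sign turned with the macrophage covariate for Sqle (-0.04), Fdps (-0.19), Nsdhl (-0.27), Ebp (-0.10), Pmvk (0.18), Mvd (-0.28), Acat2 (0.05), Ggps1 (0.17), Insig2 (0.14), Scd1 (0.24), Scd2 (0.37), Elovl1 (-0.35) and Elovl6 (0.20). The standard errors of these values ran from 0.12 (Elovl1) to 0.29 (Scd1). For Sqle, Fdps, Ebp, Acat2, Insig2, Scd1 and Elovl6 the value was smaller than its standard error. The sign also turned with median-of-ratios scaling for Mvk (0.03), Pmvk (0.01) and Acat2 (0.02), with voom for Mvk (0.04), Pmvk (0.01) and Acat2 (0.02), and with a common total for Nsdhl (-0.05), Sc5d (-0.03) and Elovl5 (-0.00). With a library left out, values crossed 0 for Nsdhl (-0.05 to 0.10), Sc5d (-0.02 to 0.09), Mvk (-0.12 to 0.10), Pmvk (-0.13 to 0.02), Acat2 (-0.10 to 0.02), Srebf1 (-0.13 to 0.02), Scd1 (-0.30 to 0.05) and Scd2 (-0.23 to 0.06), and for the log2 ratio differences of Srebf1 to Srebf2 (-0.08 to 0.12) and Scd1 to Scd2 (-0.09 to 0.00). The cause of these turns was not tested. Whether replicate numbers pair the libraries is not in the labels. Same-numbered deviations from the group means correlated at -0.21, -0.38 and 0.27. These values cannot settle it, since deviations from a mean of 3 libraries depend on each other. With the replicate numbers as a block, 11 genes were called higher, none of the 34. Fads2, below 1 FPKM in the mean with 31 to 203 reads, was not tested.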

Other observations

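Gene-model length sets how far level per length and read number differ among these genes. Fasn, with a model of 10434 bases, was number 14 of the 35 by mean FPKM and number 4 by mean reads. Acaca, with 10651 bases, was number 24 by FPKM and number 10 by reads, and Fdft1, with 10420 bases, number 32 and number 20. Fdps, with 1461 bases, was number 5 by FPKM and number 19 by reads, 912 to 2078 in a library. Tm7sf2, with 1479 bases, had the fewest reads of the tested genes, 222 to 278.

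Within groups, the same libraries were often at the ends. KO3 was the lowest KO library for 22 of the 34 tested genes (64.7%), against 26.5% of all genes tested. WT1 was the highest WT library for 17 (50.0%), against 26.1%, and WT3 the lowest for 17 (50.0%), against 31.4%. Among the 6 genes that were higher in every KO library, KO3 was the lowest KO library for 5 and WT1 the highest WT library for 5.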
